A study of Danio rerio with 14 samples.

Results

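A set of 3695 narrow H3K27ac peaks was followed that ranked high in WT, MZspg and MZsox19b zebrafish embryos and lay over H3K4me3 in all 3 genotypes. The members were chosen by their measured values. Each was a WT H3K27ac peak on chromosomes 1 to 25, less than 2000 bp wide, among the 10000 highest of its list by fold enrichment over input. Each also had to overlap a peak among the 10000 highest of the MZspg list and of both MZsox19b lists, and any H3K4me3 peak in WT, MZspg and MZsox19b. The 3695 members were 37% of the 10000 highest WT peaks, called strong peaks here, out of 125836 WT H3K27ac peaks on these chromosomes. The regions are described by position only, since no gene annotation of danRer11, the build of the files, was used here.

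Acetylation of histone H3 at lysine 27 (H3K27ac) is placed by the acetyltransferases p300 and CBP and marks promoters and enhancers in use. Trimethylation of lysine 4 (H3K4me3) is placed by SET1 and MLL complexes and is concentrated around the start sites of genes, above all at promoters rich in CpG. A peak that carries both marks is therefore commonly read as a promoter. In the zebrafish blastula both marks build up as the zygotic genome is switched on, and Pou5f3 and Sox19b, relatives of the mammalian pluripotency factors POU5F1 and SOX2, are needed at this time for open chromatin at many regulatory regions.

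Chromatin came from whole embryos of the AB/TL background at 4.3 h post-fertilization. MZspg embryos lack maternal and zygotic Pou5f3 through the spg m793 null allele. MZsox19b embryos lack maternal and zygotic Sox19b through a TALEN deletion that brings a premature stop, and other SoxB1 genes are intact in them. All embryos were staged by the age of the wild type, so a delay of a mutant and the lack of its factor cannot be told apart. There was 1 H3K27ac list for WT, 1 for MZspg and 2 for MZsox19b (replicates), and 1 H3K4me3 list for each genotype. For H3K27ac, 2 ChIP experiments were pooled in the WT library and 2 in the MZspg library, whereas each MZsox19b library came from 1.

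The peak lists give no read counts per peak, and with 1 list for most groups no test of a difference between genotypes was run. The study gives read totals per library, which were not used to scale any value. The distance between the MZsox19b replicates is given as the only measure of spread, and the intervals below are 95% Wilson intervals that cover counting error only. The H3K27ac lists held 122893 to 173020 peaks on chromosomes 1 to 25 and the H3K4me3 lists 22502 to 53634, MZspg being the shortest. Peaks were wider in the MZsox19b H3K27ac lists (medians of 364 and 361 bp) than in WT (248 bp) and MZspg (263 bp). Fold enrichments are not on 1 scale, since the 10000th peak stood at 5.53 in WT, 6.36 in MZspg, 8.33 in MZsox19b replicate 1 and 7.38 in replicate 2. Ranks were therefore used to set lists side by side.

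Taken one at a time, H3K4me3 in MZspg was the criterion that the fewest strong peaks met, but few peaks failed on it alone. Of the 10000 strong WT peaks, 8283 were narrower than 2000 bp. A strong partner was found for 6435 in MZspg, 7116 in MZsox19b replicate 1 and 6726 in replicate 2. An H3K4me3 peak lay over 6788 of the strong peaks when taken from WT, 5672 from MZspg and 6826 from MZsox19b. After the width and H3K27ac criteria 4320 peaks remained, of which 3831 had H3K4me3 in WT, 3696 in WT and MZspg, and 3695 in all 3 genotypes. A single failed criterion kept 1330 further peaks out. The width excluded 488 of these, MZsox19b replicate 2 excluded 377, the MZspg H3K27ac list 280, the MZspg H3K4me3 list 117, MZsox19b replicate 1 excluded 60, the WT H3K4me3 list 7 and the MZsox19b H3K4me3 list 1.

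Membership followed WT strength. Among the 1000 strongest WT peaks 560 were members (56.0%, interval 52.9 to 59.0%), and among those ranked 9001 to 10000 there were 110 (11.0%, interval 9.21 to 13.1%). Of the narrow peaks within the strongest 1000, 86.8% were members. The rule uses the WT rank, so this gradient is a description of the set.

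The limits of the rule cut through a continuous range of peaks. The members just inside the width limit, chr13:25840937-25842933 and chr3:16108344-16110332, were 1997 and 1989 bp wide. The nearest peaks outside it that met all else, chr4:28694216-28696215 and chr1:55748408-55750407, were both 2000 bp wide. The last members by WT rank were chr21:18223562-18224260 (rank 9985) and chr20:35438415-35439081 (rank 9978). The first peaks beyond were chr24:4159883-4160405 (rank 10002) and chr24:37406421-37406966 (rank 10014), and all 4 had a fold enrichment of 5.53.

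The promoter label was checked against the height of H3K4me3, which the rule did not use beyond the presence of a peak. Members carried high H3K4me3, with a median rank of 2408 in the WT list (fold enrichment 57.1), 2499 in MZspg (31.4) and 2309 in MZsox19b (111). In WT 95.9% of them (interval 95.2 to 96.5%) lay over one of the 10000 highest H3K4me3 peaks, in MZspg 94.6% (93.8 to 95.3%) and in MZsox19b 96.6% (95.9 to 97.1%). The background for these shares is high, since among all strong WT peaks with an H3K4me3 peak 81.6% in WT, 88.9% in MZspg and 79.3% in MZsox19b lay over a strong one. The MZspg list holds only 22502 peaks, and the share of the members there is the nearest to the background, of which the members also make up the largest part. The 2297 other narrow strong WT peaks with WT H3K4me3, which failed the rule elsewhere, lay lower, with a median H3K4me3 rank of 7518 in WT, a fold enrichment of 19.5 and 61.6% (59.6 to 63.5%) over a strong H3K4me3 peak. Failing the rule could itself mean lacking H3K4me3 in a mutant, since only 59.3% of these peaks had an H3K4me3 peak in MZspg and 84.8% in MZsox19b, so the gap in H3K4me3 is in part set by the selection. They were also weaker in H3K27ac (median WT rank 7133 against 3355).

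A small part of the set did not carry promoter-like H3K4me3. H3K4me3 was among the 10000 highest peaks in all 3 genotypes at 3447 members (93.3%), in 2 genotypes at 103, in 1 genotype at 60 and in none at 85. Of these 85, 26 lay on chromosome 15, 10 on chromosome 4 and 9 on chromosome 11. Transcripts were not part of these files, so "active" in the name of the set means the presence of the marks.

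The 3 members of highest WT H3K4me3 were chosen after their values were seen. The first, chr4:25167993-25169098, was 1106 bp wide and stood at rank 2 in the WT H3K4me3 list with a fold enrichment of 156, at rank 56 in MZspg and at rank 58 in MZsox19b. Its H3K27ac ranks were 982 in WT, 683 in MZspg, 1903 in MZsox19b replicate 1 and 959 in replicate 2. The next, chr20:54244699-54245500 and chr10:36632949-36634582, stood at H3K4me3 ranks 3 and 5 in WT and at H3K27ac ranks 103 and 239. All 3 were thus within the first 1000 peaks of WT H3K27ac, and none within the first 100. Across the 3695 members the ranks of the marks went together only in part, with a Spearman rho of 0.57 in WT, 0.53 in MZspg, 0.54 for MZsox19b replicate 1 and 0.52 for replicate 2. These points share their libraries and a pooled input.

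Members were about 1 kb wide in WT and their partners were wider in every mutant list. The median WT width was 951 bp (quartiles 703 and 1282, range 234 to 1997), and 54.0% were under 1000 bp. Partners had a median width of 1217 bp in MZspg, 1586 bp in MZsox19b replicate 1 and 1601 bp in replicate 2. The mutant peak was the wider one at 82.1% of members in MZspg, 95.6% in replicate 1 and 94.2% in replicate 2, with median ratios to the WT width of 1.21, 1.58 and 1.56. The width limit applied to WT only, so the partners were free to be wider than the members. All strong WT peaks had a median of 1007 bp, and their strong partners 1335 bp in MZspg, 1787 bp in replicate 1 and 1878 bp in replicate 2. For the other narrow strong peaks with WT H3K4me3 these were 656, 942, 1219 and 1441 bp. The share of wider partners was not computed for these sets, and the widening is not read as particular to the members. At 31.6% of members the partner in replicate 1 reached 2000 bp, and at 33.4% in replicate 2, against 13.3% in MZspg.

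The extra width lay on both sides. The median partner reached 68 bp further on the left and 61 bp further on the right in MZspg, 214 and 199 bp in MZsox19b replicate 1, and 196 and 182 bp in replicate 2. The WT peak lay wholly inside its partner at 63.1% of members in MZspg, 83.1% in replicate 1 and 72.3% in replicate 2. The wider peaks of the whole MZsox19b lists move with this, and their part in it was not tested. The order of widths was kept only loosely between genotypes (Spearman rho with WT of 0.63 in MZspg and 0.59 in each MZsox19b replicate, n = 3695), and better between the replicates (0.78).

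**Figure D1:**
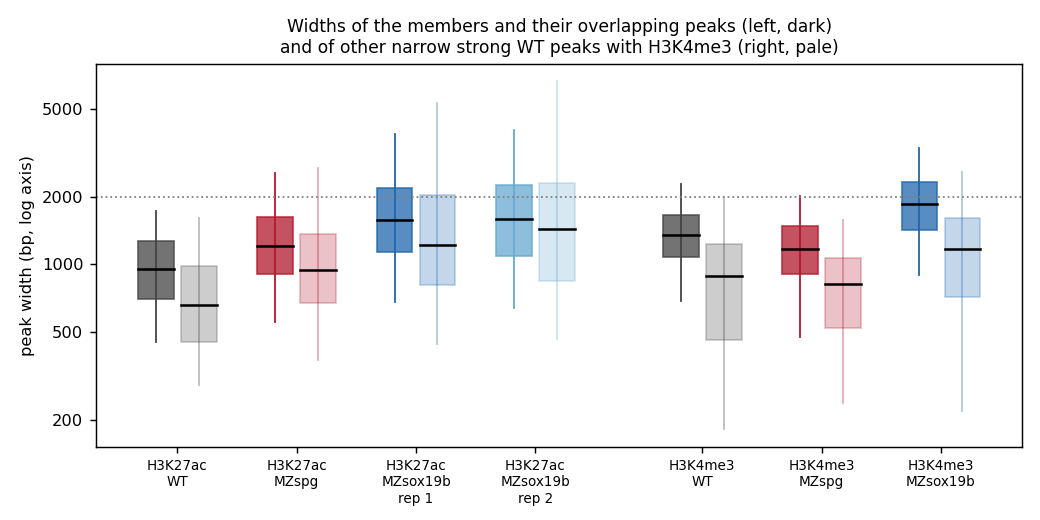
Peak width in bp on a log axis for the 4 H3K27ac and 3 H3K4me3 lists. Bars span the quartiles, black lines are medians and whiskers the 5th and 95th percentiles; dark bars are the members or their overlapping peaks, pale bars the other narrow strong WT peaks with H3K4me3 (those with a strong partner or an H3K4me3 peak in that list), and the dotted line is the 2000 bp limit. The H3K27ac medians of the members run from 951 bp in WT to 1601 bp in MZsox19b replicate 2.

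H3K4me3 domains at the members had median widths of 1351 bp in WT, 1172 bp in MZspg and 1861 bp in MZsox19b. In WT the H3K4me3 peak was wider than the H3K27ac peak at 87.6% of members, and in MZspg at 47.8%. The MZspg H3K4me3 library was the one sequenced least deeply according to the study's methods, and its part in this was not tested. In WT, wider members were also stronger in both marks. Members under 500 bp (299 of them) had a median H3K27ac fold enrichment of 7.59 and an H3K4me3 fold of 34.7, and members of 1500 bp or more (495) had 14.1 and 70.6.

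The partners were nearly one to one. The 3695 members had 3660 distinct partners in MZspg, 3643 in MZsox19b replicate 1 and 3660 in replicate 2. In MZspg 34 peaks covered several members each, 69 members in all. In replicate 1, 51 peaks covered 103 members, and in replicate 2, 35 peaks covered 70.

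The order of the members was held more closely between the MZsox19b replicates than between genotypes. Members were ranked from 1 to 3695 within each H3K27ac list, and the median absolute difference in rank was 327 between the replicates. It was 393 between WT and MZspg, 489 between WT and MZsox19b replicate 1, 500 between WT and replicate 2, and 522 and 520 between MZspg and the replicates. Every pair of genotypes thus differed more than the replicates did, WT and MZspg least. Spearman's rho over the 3695 members was 0.84 between the replicates and 0.73 for WT with MZspg. With replicates 1 and 2 of MZsox19b it was 0.68 and 0.66 for WT, and 0.63 and 0.61 for MZspg. MZspg and MZsox19b were the pair of genotypes furthest apart on this measure.

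Across the 4 lists a member moved over a median range of 982 ranks, 26.6% of the set. The range was at most 10% of the set for 437 members (11.8%) and over 50% of it for 534 (14.5%). The strongest members kept their place best. When the members were split by WT rank into 4 classes of equal size, the median range was 593 ranks in the strongest class and 1068, 1144 and 1040 in the others. Of the 923 highest members of a list, 456 were among the 923 highest of all 4 lists (49.4%). Taken in pairs of lists, 732 (79.3%) were shared by the MZsox19b replicates and 677 (73.3%) by WT and MZspg. WT shared 632 (68.5%) with replicate 1 and 615 (66.6%) with replicate 2. The 923 lowest members were less well kept, with 253 (27.4%) in all 4 lists and 632 (68.5%) shared by the replicates. WT shared 551 (59.7%) of them with MZspg, 499 (54.1%) with replicate 1 and 480 (52.0%) with replicate 2. A rank cannot pass either end of the list, and this limits the range of the strongest and weakest members more than that of the middle.

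**Figure D2:**
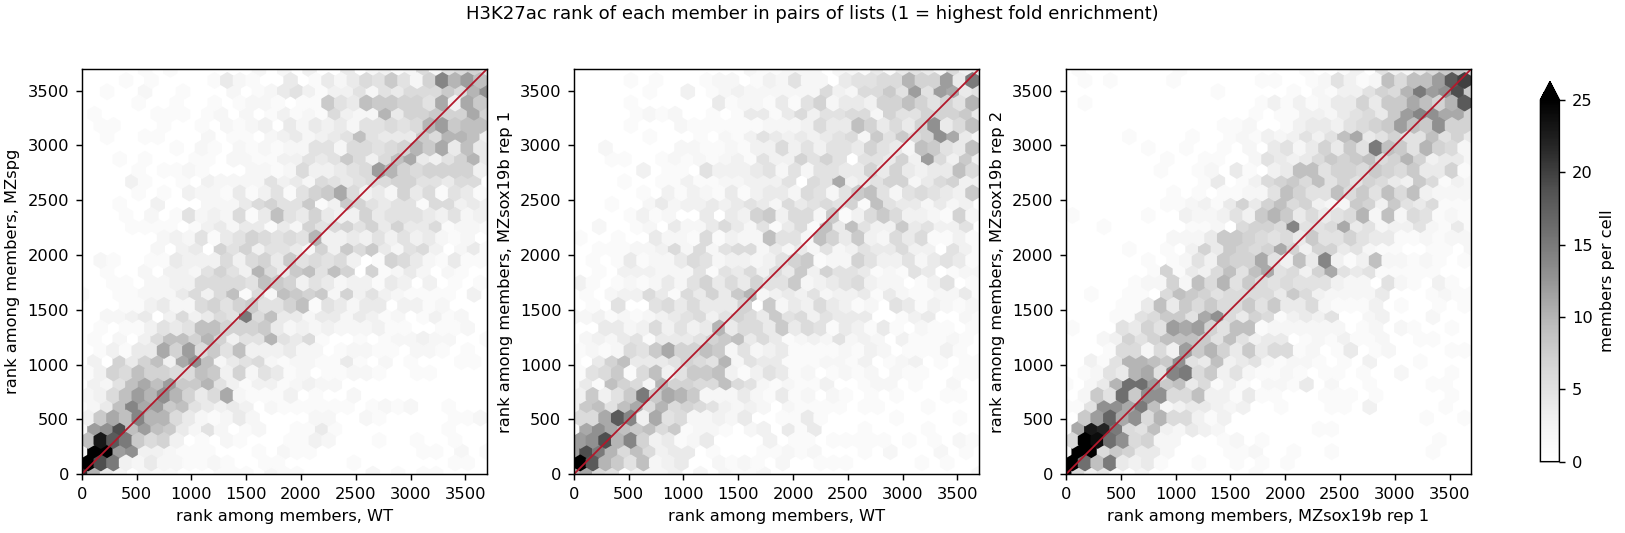
Each panel sets the rank of the 3695 members in one H3K27ac list (x axis) against another (y axis), 1 being the highest fold enrichment; the grey level is the number of members per hexagonal cell and the red line marks equal ranks. The cloud is tightest for the MZsox19b replicates (rho 0.84), then WT and MZspg (0.73) and WT and MZsox19b replicate 1 (0.68).

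Complete exchange between the ends was rare among the members. Peaks that were strong in WT but not in a mutant list were left out before these counts. The rarity is therefore in part set by the rule. Of the 923 highest members in WT, 22 were among the 923 lowest in MZspg, 15 in MZsox19b replicate 1 and 14 in replicate 2, and between the replicates 7 did so. In the other direction 23 members went from the 923 lowest in WT to the 923 highest in MZspg, 32 in replicate 1 and 49 in replicate 2, against 11 from replicate 1 to replicate 2.

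H3K4me3 order, which the rule did not use, gave a higher rho between genotypes than H3K27ac order. Spearman's rho of the H3K4me3 ranks was 0.85 for WT and MZspg, 0.86 for WT and MZsox19b and 0.80 for MZspg and MZsox19b over the same members. There was no replicate of H3K4me3 to set beside these values. The rule kept only members that were strong in every H3K27ac list, but it set no limit on the H3K4me3 rank. The narrower range of H3K27ac ranks can itself lower their rho. The difference between the marks is therefore in part set by the selection, and nothing is read from it.

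By the smallest worst rank over the 4 lists, the first member was chr4:28699775-28700309, only 535 bp wide. It ranked 31 in WT (fold enrichment 29.3), 11 in MZspg (46.7), 27 in MZsox19b replicate 1 (51.7) and 1 in replicate 2 (97.4). This position was high in all 4 lists, but its H3K4me3 was low, at a fold of 3.94 in WT (rank 19281), 2.03 in MZspg and 13.1 in MZsox19b. It belongs to a run of 7 members described below.

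The next, chr1:3298105-3299947, was 1843 bp wide and ranked 72, 40, 44 and 68 in WT, MZspg and the MZsox19b replicates, with folds of 26.3, 38.2, 48.0 and 38.9. Its H3K4me3 stood at ranks 28, 118 and 7 in WT, MZspg and MZsox19b. This region was near the top for both marks in every genotype. The member chr21:18273862-18275348 ranked 70, 78, 35 and 77 for H3K27ac, and its WT H3K4me3 domain of 3648 bp was far wider than its H3K27ac peak of 1487 bp. The member chr11:45387828-45389340 ranked 45, 30, 64 and 92, with H3K4me3 ranks of 94, 30 and 29. The last of the 5, chr3:29934626-29935351, was 726 bp wide and ranked 99, 68, 9 and 54, with H3K4me3 at rank 2552 in WT and 281 in MZsox19b. Only 5 members were within the first 100 of all 4 lists, while 137 were within the first 100 of at least one. Within the first 1000 the numbers were 226 and 1011 (22.4%), and within the first 5000 they were 1817 and 3400 (53.4%).

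By the ratio of the highest to the lowest list rank, the steadiest members were not at the head of the lists. This ratio is large at small rank numbers, where a few places change it much. By the range of ranks among members, none was steadier than chr1:3298105-3299947, described above, with a range of 5 ranks. At chr1:11006-12444 the ranks were 2811 in WT, 2691 in MZspg, 2766 in MZsox19b replicate 1 and 2825 in replicate 2, a ratio of highest to lowest of 1.05. At chr8:28385750-28386428 they were 3195, 3296, 3154 and 3134, while the peak widened from 679 bp in WT to 2783 bp in replicate 2. Rank and width thus varied apart at this position. The member chr21:43457024-43457681 ranked 2722, 2582, 2591 and 2664, and chr12:10380101-10381901 ranked 1412, 1390, 1352 and 1323. Near the limit of the rule, chr8:36617619-36618091 ranked 9782, 9210, 9775 and 9563, yet its H3K4me3 stood at ranks 2225, 2797 and 2253.

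A shift was counted where the list rank differed by a factor of 2 or more, and the share among all strong WT peaks with a strong partner in the list compared is given beside it as the background. This background includes the members themselves. In MZspg 574 members (15.5%, interval 14.4 to 16.7%) ranked higher than in WT by this measure, against 17.6% of the background, and 269 (7.28%, interval 6.49 to 8.16%) ranked lower, against 9.82%. In MZsox19b replicate 1, 589 (15.9%) ranked higher and 436 (11.8%) lower, with backgrounds of 21.1% and 12.8%. In replicate 2, 401 (10.9%) ranked higher and 664 (18.0%) lower, with backgrounds of 20.8% and 16.9%. In both replicates together 281 (7.60%) ranked higher and 327 (8.85%) lower, against 15.5% and 9.87%. Ranked by -log10 q in place of fold enrichment, 146 members instead of 327 ranked lower in both replicates. The members had to be strong in every list, which removes large falls, and the rule used these ranks, so nothing is read from their distance to the background.

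Between the replicates themselves 173 members (4.68%) ranked 2-fold higher in replicate 2 than in replicate 1 and 451 (12.2%) lower, with backgrounds of 7.7% and 10.6%. The 269 members lower in MZspg and the 436 lower in replicate 1 did not exceed the 451 that differed this way between replicates of 1 genotype, while the 574 higher in MZspg, the 589 higher in replicate 1 and the 664 lower in replicate 2 did. The 401 higher in replicate 2 did not exceed the 451 either. The 451 is the larger replicate count, and all these counts exceeded the smaller, 173. Which of them is a gain depends on the replicate put first, so neither is a measure of spread for 1 direction. List ranks as a whole were displaced, the median log2 ratio of the list ranks to WT being -0.23 in MZspg, -0.13 in replicate 1 and 0.17 in replicate 2. Between the replicates the displacement was larger, with a median log2 ratio of 0.31 for replicate 2 to replicate 1.

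The shifts in the mutants overlapped in part. Members that ranked higher in MZspg and in both MZsox19b replicates numbered 101, which is 17.6% of the 574 and 35.9% of the 281. Those that ranked lower in both numbered 91, which is 33.8% of the 269 and 27.8% of the 327. Opposite shifts were found at 19 members that were lower in MZspg and higher in MZsox19b, and at 27 of the reverse kind. All these counts use the same WT list. The matching shares over all strong WT peaks were not computed, so the overlaps are not read as particular to the members.

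The 3 members with the largest gain of rank in MZspg lay between ranks 3405 and 6065 in WT. At chr22:6163043-6163995 the rank was 5394 in WT (fold 7.83), 1 in MZspg (62.9), 391 in MZsox19b replicate 1 (33.1) and 796 in replicate 2 (22.1). Its partner was 2921 bp wide in MZspg against 953 bp in WT, and its H3K4me3 rank went from 6665 in WT to 189 in MZspg and 2024 in MZsox19b. At chr25:26253451-26254164 the H3K27ac ranks were 3405, 2, 1157 and 999 and the H3K4me3 ranks 6664, 236 and 2936. At chr4:41124713-41125919 they were 6065, 6, 1263 and 567, with H3K4me3 at 7708, 350 and 2745. All 3 stood highest in MZspg, next in MZsox19b and lowest in WT, in both marks.

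The largest falls in MZspg started near the top of the WT list. The member chr2:58008115-58010083 ranked 41 in WT (fold 28.6), 1326 in MZspg (18.2), 2441 in MZsox19b replicate 1 (19.1) and 1619 in replicate 2 (17.9), and was lower in both mutants. Its H3K4me3 ranked 206, 1868 and 1496 in WT, MZspg and MZsox19b. The member chr4:65850686-65852271 ranked 262 in WT, 6742 in MZspg, 49 in replicate 1 and 80 in replicate 2, so that it was low in MZspg alone. Its H3K4me3 ranked 3385 in WT, 17188 in MZspg and 3046 in MZsox19b, with folds of 46.3, 2.94 and 93.8 that are not on 1 scale. At chr6:38845166-38846749 the ranks were 108, 2483, 2829 and 521, and the replicates of MZsox19b stood far apart.

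In MZsox19b the 3 largest gains, taken by the smaller shift of the replicates, all lay on chromosome 4. At chr4:69801322-69802761 the rank was 1362 in WT, 378 in MZspg, 7 in replicate 1 and 4 in replicate 2, with folds of 14.3, 25.6, 65.3 and 88.4. At chr4:43388476-43389603 it was 2486, 3741, 3 and 17, and the partner measured 339 bp in MZspg but 6412 bp in replicate 1. H3K4me3 there ranked lower in MZsox19b (4740) than in WT (3047), whereas at chr4:69801322-69802761 it ranked higher (2049 against 3465). At chr4:28693265-28693904 the H3K27ac rank was 1443, 90, 18 and 8. The partners of 4642 bp in replicate 1 and 3034 bp in replicate 2 also overlapped neighbouring strong WT peaks, so these ranks are not separate measurements. H3K4me3 there was low, at rank 25714 in WT (fold 3.16) and 14685 in MZsox19b. The largest falls were the chromosome 2 member above, chr22:7024082-7025450 (ranks 10, 37, 310 and 188) and chr11:6071400-6073293 (75, 223, 1389 and 1436). The latter had weak H3K4me3 in WT (fold 6.09) with its summit 591 bp from that of H3K27ac.

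**Figure D3:**
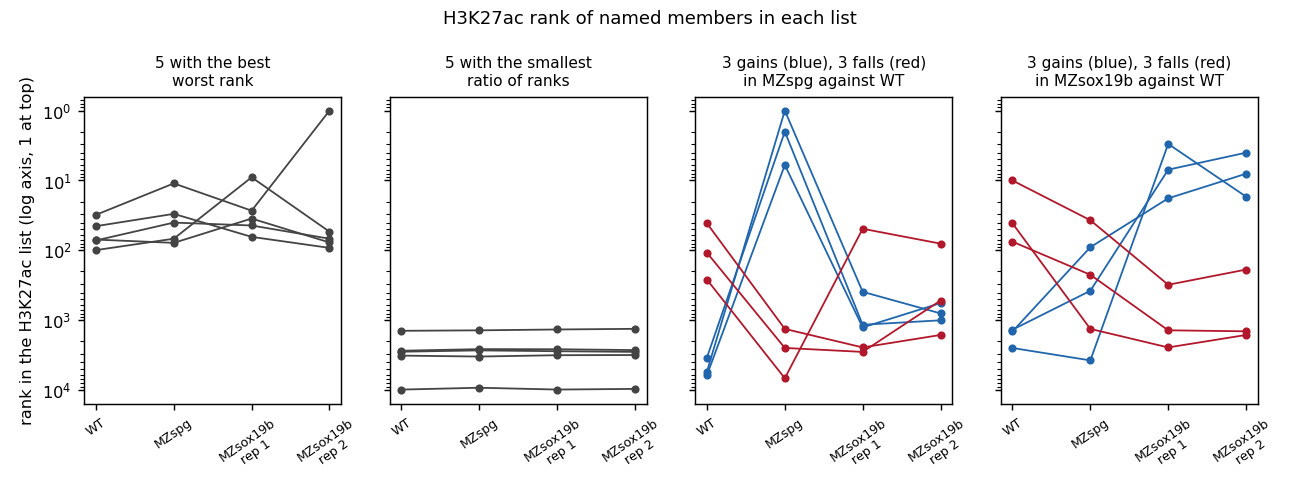
Rank in each of the 4 H3K27ac lists (log axis, rank 1 at the top) for the named members, each line being 1 member. From left to right are the 5 with the best worst rank, the 5 with the smallest ratio of ranks, and the 3 largest gains (blue) and falls (red) in MZspg and in MZsox19b; the member that reaches rank 1 in MZspg started at rank 5394 in WT.

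H3K4me3 ranks came from other libraries and were not used to choose shifts, so they were compared at the members that shifted in H3K27ac. The median shift of H3K4me3 had the same sign as that of H3K27ac, with wide spread. Where H3K27ac ranked 2-fold higher in MZspg (574 members), the median log2 ratio of the H3K4me3 rank in MZspg to WT was -0.34, a smaller rank number and thus a higher place (quartiles -0.92 and 0.13). Where H3K27ac ranked lower (269), it was 0.73, and at the other 2852 members it was 0.07. H3K4me3 itself ranked 2-fold lower at 37.5% of the members whose H3K27ac ranked lower, at 4.53% of those whose H3K27ac ranked higher and at 10.4% of all members. It ranked 2-fold higher at 23.3% of the members whose H3K27ac ranked higher, at 3.35% of those whose H3K27ac ranked lower and at 9.42% of all members. The matching shares over all strong WT peaks with H3K4me3 were not computed, so the shared direction is not read as particular to the members.

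In MZsox19b the medians had the same signs. The median log2 ratio of the H3K4me3 rank was -0.67 at the 281 members that ranked higher in both H3K27ac replicates, 0.51 at the 327 that ranked lower and -0.05 at the other 3087. Over all 3695 members the shift of H3K27ac and that of H3K4me3 had a Spearman rho of 0.34 in MZspg and 0.44 in MZsox19b (mean of the replicates). The libraries of the marks differ, but all lists were called against a pooled input, which they share. Here too the values over all strong WT peaks with H3K4me3 were not computed.

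The summits of the marks lay within the length of a nucleosome at most members. In WT the H3K27ac summit was a median of 38 bp from the nearest H3K4me3 summit (quartiles 15 and 92 bp). With each genotype's own summits the median was 43 bp in MZspg, 28 bp in MZsox19b replicate 1 and 33 bp in replicate 2. The genotypes differed by at most 15 bp, and the replicates, which share the H3K4me3 list, by 5 bp. These distances are small against the sheared chromatin fragments, whose length limits how finely a summit can be placed.

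Within 150 bp were 84.0% of the members in WT (interval 82.8 to 85.2%), 82.5% in MZspg (81.2 to 83.7%), 82.7% in MZsox19b replicate 1 (81.5 to 83.9%) and 83.6% in replicate 2 (82.4 to 84.8%). Within 500 bp were 95.3 to 96.6% and within 1000 bp 98.3 to 99.4%. The other narrow strong peaks with H3K4me3 had a median distance of 33 bp in WT, with 82.5% within 150 bp (interval 80.8 to 84.0%). For all strong WT peaks with H3K4me3 these values were 39 bp and 80.1% (79.1 to 81.0%). By the median and the 150 bp share over all widths, close summits were thus not particular to the members. Within 500 bp in WT were 96.4% of the members, 93.8% of the other narrow peaks and 92.4% of all strong peaks with H3K4me3. These sets differ in width, and shares by width are given below. The summits were within 150 bp in all 4 lists at 2438 members (66.0%) and in none at 173 (4.68%). The H3K4me3 summit lay to the right of the H3K27ac summit at 50.2% of members in WT, so no side was preferred along the chromosome.

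**Figure D4:**
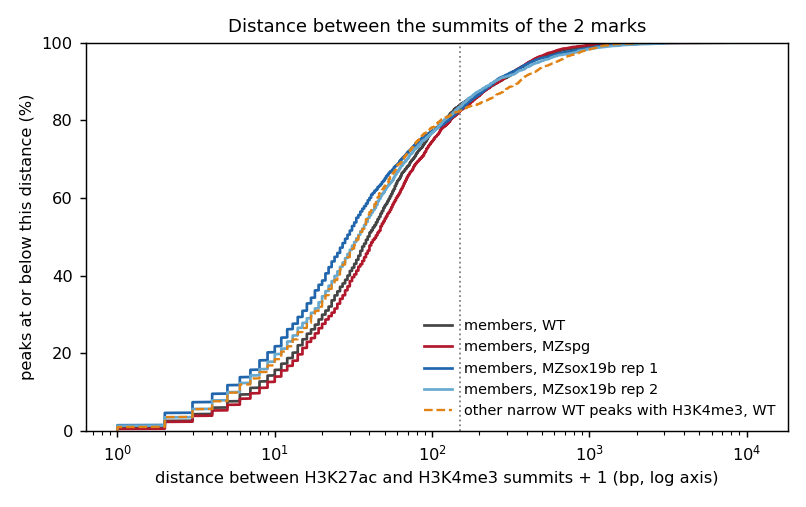
Share of peaks (y axis, %) whose H3K27ac summit lies at or below a given distance from the nearest H3K4me3 summit of the same genotype (x axis, bp plus 1, log axis). Solid lines are the members in the 4 H3K27ac lists and the dashed line the 2297 other narrow strong WT peaks with H3K4me3; the dotted line marks 150 bp, where the members stand at 82.5 to 84.0%.

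The distance between the marks was larger at wider peaks. Only H3K4me3 peaks that overlapped the H3K27ac peak were used, and overlap limits the distance more at narrow peaks. Nothing is therefore read from this gradient. In WT its median was 20 bp for members under 500 bp, 34 bp from 500 to 1000 bp, 52 bp from 1000 to 1500 bp and 55 bp above. The other narrow peaks with H3K4me3 that were under 500 bp had 95.7% within 150 bp (interval 94.0 to 97.0%) against 94.6% of the members (91.5 to 96.7%). From 500 to 1000 bp the shares were 89.2% of the members and 84.6% of the others, and from 1000 to 1500 bp 77.6% and 64.7%. Among peaks of 1500 to 2000 bp, 75.4% of the members (71.4 to 78.9%) but 53.1% of the others (45.4 to 60.6%) were within 150 bp. The 488 wide peaks that met the rest of the rule had a median distance of 70 bp in WT, with 63.7% within 150 bp (59.4 to 67.9%). Summit distance was not used by the rule, but H3K4me3 was weaker at the other peaks of this width (median fold 19.2 against 70.6), and its part was not tested.

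Members with the summits far apart were few. At 133 members (3.60%) the distance in WT was over 500 bp, and these had a median width of 1247 bp, an H3K4me3 domain of 1969 bp and a median WT rank of 4657, against 915 bp, 1309 bp and 3296 for the 3104 members within 150 bp.

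H3K27ac summits of the members were also close between genotypes. The rule required overlapping peaks in every list, which limits these distances, and they were not computed for other peaks. Closeness is therefore not read as particular to the members. The median distance of the WT summit from that of the partner was 29 bp in MZspg, 30 bp in MZsox19b replicate 1 and 37 bp in replicate 2, and the replicates were 29 bp from each other. The summit was within 150 bp of the WT summit at 91.0% of members in MZspg, 88.5% in replicate 1 and 87.4% in replicate 2, and at 90.1% between the replicates. The H3K4me3 summits were 27 bp apart in WT and MZspg and 28 bp in WT and MZsox19b. The summits of WT and MZspg were as close as those of the MZsox19b replicates, while the median ratio of widths was 1.21 for MZspg to WT and 1.01 for replicate 2 to replicate 1.

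Members were found on all 25 chromosomes, at 1.82 to 4.34 per Mb of the span up to the last peak of any list. As a share of the strong WT peaks of a chromosome they ranged from 28.6% on chromosome 4 (269 of 941, interval 25.8 to 31.6%) to 47.5% on chromosome 22 (170 of 358, interval 42.4 to 52.7%), with a median of 37.1% over chromosomes. The number of members was still highest on chromosome 4, since it held the most strong peaks. Chromosome 22 had the densest members, 4.34 per Mb, and chromosome 9 the sparsest, 1.82 per Mb. On chromosome 16, between 36 and 37 Mb, a window chosen with its values known, 52 strong WT peaks held 1 member.

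**Figure D5:**
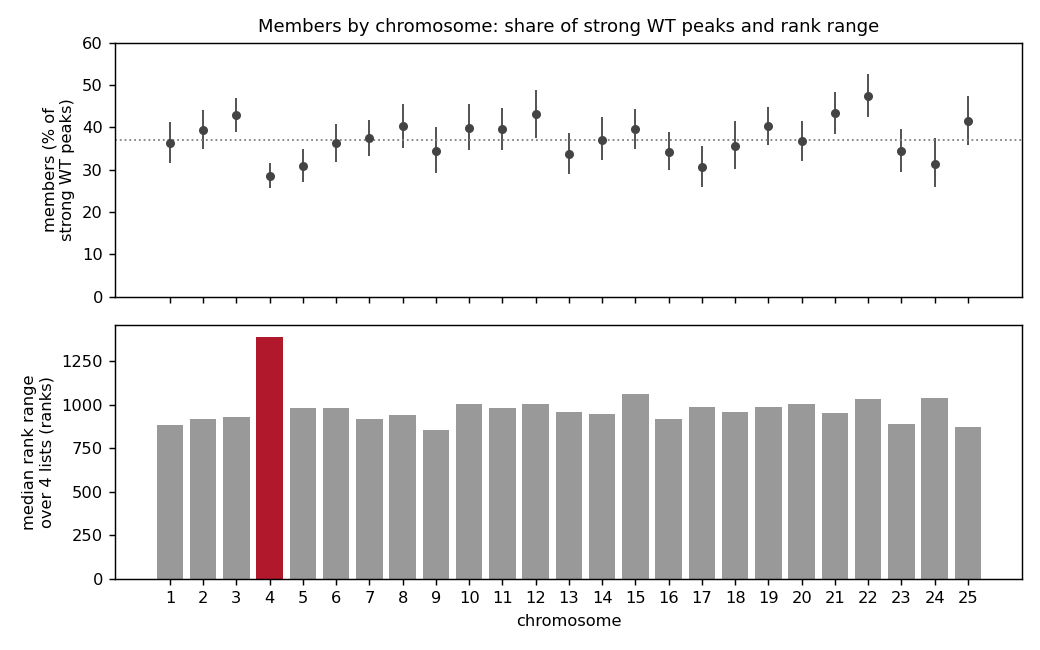
Upper panel, members as a percentage of the strong WT peaks of each chromosome with 95% Wilson intervals; the dotted line is the share over all chromosomes. Lower panel, median range of the H3K27ac rank over the 4 lists among the members of each chromosome, in ranks out of 3695; chromosome 4 (red) has the lowest share, 28.6%, and the widest range, 1390.

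Chromosome 4 differed along its length. From 0 to 20 Mb members were 44.2% of the strong peaks (73 of 165, interval 36.9 to 51.9%), and from 20 to 40, 40 to 60 and 60 to 80 Mb they were 25.4% (20.2 to 31.5%), 21.8% (17.6 to 26.6%) and 30.0% (24.4 to 36.2%). The 20 Mb steps were chosen after the values were seen. Fewer peaks met the MZspg criteria in these parts. Between 40 and 60 Mb a strong MZspg partner was found for 33.3% of the strong WT peaks and MZspg H3K4me3 for 40.8%, against 66.3% and 57.7% on the other 24 chromosomes. A strong partner in MZsox19b was more frequent there, 85.7% in replicate 1 and 87.2% in replicate 2 against 69.9% and 65.7%.

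The members on chromosome 4 also had the least stable ranks, with a median range of 1390 ranks (37.6% of the set) against 963 on the other chromosomes together and 855 to 1062 on each of them. The MZsox19b replicates differed by 323 ranks there and by 327 elsewhere, so the wider range was not in the replicates. Of the 269 members on chromosome 4, 69 ranked 2-fold higher in both MZsox19b replicates (25.7%, interval 20.8 to 31.2%) against 6.19% (5.43 to 7.04%) of the 3426 others. In MZspg 41 ranked 2-fold lower (15.2%, interval 11.4 to 20.0%) against 6.65% (5.87 to 7.54%). Of the 19 members lower in MZspg and higher in MZsox19b, 14 lay on chromosome 4. The rule used these ranks, and the shares among all strong WT peaks of chromosome 4 were not computed. The shifts are therefore not read as particular to the members there. The 269 members on chromosome 4 had a lower H3K4me3 fold than the others in each genotype. The medians were 44.4, 21.4 and 93.8 in WT, MZspg and MZsox19b against 58.5, 32.5 and 112.

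Most members stood alone. The median gap between neighbours was 156866 bp, and 443 members had another within 5 kb, in 191 pairs and 15 larger groups. Members with such a neighbour had a median width of 895 bp against 959 bp for the others, a rank range of 1026 against 977 ranks and a summit distance of 40 against 38 bp.

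The largest groups, named after their values were seen, lay in stretches of low H3K4me3. On chromosome 15 a stretch of 179.6 kb at chr15:9663064-9842681 held 24 members among 33 strong WT peaks, with a median width of only 432 bp. Their H3K27ac ranks had medians of 5184 in WT, 2754 in MZspg, 3313 in MZsox19b replicate 1 and 3791 in replicate 2. The median H3K4me3 fold was 3.92 in WT, 3.35 in MZspg and 21.6 in MZsox19b, and the median H3K4me3 rank 19508, 15100 and 10900. At 20 of the 24 H3K4me3 was outside the 10000 highest in all 3 genotypes. H3K27ac was thus moderate in every genotype at these positions, while H3K4me3 was far below the median of the set.

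The other is the run of 7 members at chr4:28693265-28709785, 16.5 kb long with 11 strong WT peaks. Here H3K27ac was high. The ranks ran from 31 to 1443 in WT, from 11 to 1089 in MZspg, from 4 to 27 in MZsox19b replicate 1 and from 1 to 38 in replicate 2. H3K4me3 had median folds of 5.04 in WT, 1.82 in MZspg and 15.6 in MZsox19b, and median ranks of 16051, 22174 and 12971. It was outside the 10000 highest in all 3 genotypes at all 7. The partners merged in this run, with 4 peaks in replicate 1 and 6 in replicate 2 for the 7 members, so their ranks there are not separate measurements.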

How the data were processed

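H3K27ac and H3K4me3 ChIP-seq was done on WT, MZspg and MZsox19b embryos (14 samples, 7 of them inputs). The authors aligned paired reads to danRer11 with Bowtie2 2.3.2.2 and called peaks per library with MACS2 against pooled inputs at a q-value limit of 0.05; 7 peak lists were read. The deposited fold enrichment is a ratio of ChIP to background at the summit, the deposited p-values and q-values are given as -log10, and the deposited score is 10 times the -log10 q, truncated (4 peaks differ). The summit offset was used as deposited. The lists give no read counts per peak, and library totals were not used.

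Peaks on chromosomes 1 to 25 were ranked by fold enrichment, ties by -log10 q. Overlap meant at least 1 bp. The partner of a member was the overlapping strong peak of highest fold, and the H3K4me3 peak likewise. Overlap, ranking and selection were tested on simulated lists. Python 3.11.15, pandas 2.3.3, numpy 2.4.6 and scipy 1.17.1 were used. Intervals are 95% Wilson intervals.

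The members and all rules were chosen with earlier results of these data known. Named regions were the 5 with the smallest worst rank, the 5 with the smallest ratio of ranks, the 3 largest gains and falls of rank in each mutant, and the 2 on each side of each limit. Start sites, gene lists, markers of the embryo, GC content and motifs were not analysed here, since the reference tables used another assembly. Alternatives varied the ranking, the limits, the overlap and the libraries.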

Additional observations from a re-analysis of the deposited data

Results flagged for a closer look

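The rule keeps to chromosomes 1 to 25, but the lists also hold peaks on alternate loci and unplaced scaffolds, which no comparison above used. Ranked over all sequences, 1107 of these peaks were among the 10000 highest of WT H3K27ac, and 380 of them met the rest of the rule (34.3%, 95% Wilson interval 31.6 to 37.2%). Of the 380, 319 lay on alternate loci and 61 on other scaffolds, and their median width was 852 bp. On chromosomes 1 to 25, 37% of the strong WT peaks met the rule. The peaks are listed here because they lie outside the chromosomes described, and their number, above the 3 that a count of 0 allows, is no measure of enrichment.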

How the results depend on the processing

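No paired analysis was possible because no result comes from a test and most groups have 1 list. Of the values recomputed, 88 stayed within 1.5 times the count or within the interval of the main value, and 45 moved. A change of direction was not defined for these values. In MZsox19b falls outnumbered gains as reported (327 against 281). Gains outnumbered falls when ranked by -log10 q (370 against 146) and with the 20000 highest peaks (568 against 440). They also did under 1000 bp, with wide peaks removed before ranking and without replicate 2. Of 58 recomputed rank ratios of named regions none was reversed and 57 kept a 2-fold shift. The ratio that did not keep it was that of chr22:7024082-7025450 in MZsox19b, whose log2 ratio fell to 0.88 when ranked by -log10 q. The alternatives without chromosome 4 and without the MZspg H3K4me3 list, those without members that share a partner, and all alternatives for counts of rank shifts were chosen after seeing the data.

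With the 5000 highest peaks there were 1817 members of median width 1119 bp and rank range 30.5% of the set, and 2-fold gains and falls numbered 295 and 165 in MZspg and 138 and 216 in MZsox19b. With the 20000 highest there were 6039 members, width 818 bp, rank range 24.6%, a lowest chromosome share of 19.8%, 1057 gains and 428 falls in MZspg and 568 gains in MZsox19b. Under 1000 bp there were 1997 members, width 724 bp, rank range 32.6%, summit distance 32 bp, a lowest share of 16.3% (on chromosome 24, not 4), 310 gains and 90 falls in MZspg and 154 and 132 in MZsox19b. With no width limit the width was 1032 bp, the rank range 25.5%, the summit distance 41 bp and the lowest share 31.9%. With wide peaks removed before ranking these were 767 bp, 27.9%, 34 bp and 15.9%, with 163 falls in MZspg and 423 gains and 113 falls in MZsox19b. Ranking by -log10 q gave a lowest share of 23.9% and 146 falls in MZsox19b. Ranks among all sequences gave a width of 983 bp and a rank range of 27.3%. The lowest share was 24.8% with at least 50% of the WT peak covered and 24.5% with H3K4me3 among its 10000 highest.

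Leaving out one MZsox19b replicate, the width was 922 to 951 bp, the rank range over the remaining 3 lists 21.6 to 22.1%, gains in MZsox19b 402 to 592 and falls 466 to 673; these counts then rest on 1 list, without replicate 1 for the 673 and without replicate 2 for the 592. The cause of the other changes was not tested. Start-site shares and their windows of 500 and 2000 bp were not run.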
